A study of Mus musculus with 71 samples.

Results

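Neural and ectoderm transcription factor genes were followed in mouse embryonic stem cells (mESCs) as a set of 47 genes out of 22226 protein-coding genes. The genes were listed by name for their known roles in the early nervous system and its neighbouring ectoderm, a rule that used no measured value, although earlier results of these data were known when the list was drawn up. Each was read in 2 assays, RNA-seq and H3K27me3 ChIP-seq. The study compared wild-type (WT) R1 mESCs with H1-TKO R1 mESCs, in which H1c, H1d and H1e, which encode linker histones, were knocked out. All the cells were kept on gelatin with LIF, which holds them undifferentiated. The knockout was made with CRISPR/Cas9 and 1 guide that matches all 3 genes, single-cell clones were picked, and other linker histone genes were left in place, so H1 was lost in part. The RNA-seq part held 2 libraries per genotype and the H3K27me3 part used here held 1 peak list per genotype.

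The genotypes of the RNA-seq libraries were stated in opposite ways. The deposited tables were named H1-TKO where the sample labels said wild type, and WT where the labels said knockout. The names of the tables were used here, so the libraries are called WT-named and H1-TKO-named, and every RNA-seq direction below would turn round under the sample labels. The knocked-out genes did not settle the naming. The level of H1f2 (the H1c gene), in normalized counts, was 11.6 and 56.7 in the WT-named libraries and 18.7 and 7.4 in the H1-TKO-named libraries. That of H1f3 (H1d) was 3.9 and 41.4 against 1.1 and 0.0. H1f4 (H1e) was read at 5.4 and 19.6 against 0.0 and 2.1. These low levels overlapped or varied widely within a group, and an edited gene can still be transcribed. The labels and file names of the H3K27me3 lists gave the same genotypes.

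Embryonic stem cells can form every tissue of the embryo, and they hold the master regulators of those tissues silent until differentiation. Neural fate is built by layers of transcription factors. SOX and POU factors mark the early neural plate, homeodomain factors divide the neural tube into domains, basic helix-loop-helix (bHLH) factors push progenitors to become neurons or glia, and later factors set the kind of neuron. Many of these genes lie in CG-rich DNA and are textbook targets of Polycomb repressive complex 2, which places the repressive mark H3K27me3 on their chromatin. Linker histone H1 binds between nucleosomes and compacts chromatin.

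The libraries held 6951619 to 10538507 reads that could be recovered from the normalized counts, and 1 read was worth 0.776 to 1.102 normalized counts. A single accession without a gene symbol took 11.8% of the WT-named replicate 2 library and at most 2.1% of the other libraries. Of 13 pluripotency genes 11 passed the filter on low values, and Pou5f1, the core pluripotency factor, was read at 2585.9 to 5110.2. The other 2, both core genes of mESCs, were Nanog, with 4 accessions and 0.0 in every library, and Esrrb, with 2 accessions and 0.0 to 3.3. Whole chromosomes also differed between the groups. The median log2 difference, H1-TKO-named minus WT-named, was 0.50 over 561 tested accessions of chromosome 1, -0.39 over 819 of chromosome 11 and -0.25 over 534 of chromosome 8, against -0.03 over all 11113 accessions tested. The tested members on chromosomes 1, 8 and 11, namely Pou3f3, Sox1 and Tlx3, are set against the median of their chromosome below. The largest median, -5.61, was that of chromosome Y, over 5 tested accessions. No member lies on it, and the cause of these chromosome differences was not tested. The study describes its duplicates as independent samples, and the p-values measure the spread between these libraries.

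Most of the 47 genes were near the limit of detection in all 4 libraries. Their median level was 2.8 normalized counts, a few reads per library, against 11.2 over 18149 protein-coding genes with a value. Per kilobase of exon the median was 1.06 for the 46 members with a known exon length and 3.64 for all protein-coding genes. In all, 4 genes had no read in any library, namely Pax3, Irx3, Dlx5 and Barhl1. A mean under 1 was found for 12 genes, these 4 included, and a mean of 1 to 10 for 24. The other 11 genes (23.4%) reached a mean of 10, a level that 50.8% of protein-coding genes reached. Several of the lowest values carry a limit of counting. For 9 genes (Barhl1, Dlx5, Irx3, Lhx2, Lhx9, Nkx2-2, Nkx6-2, Pax3 and Pax6) the tables held several accessions each, and 6 of these 9 had a mean under 1, against 6 of the 38 genes with a single accession. How reads shared by the accessions of a gene were counted is not given in the sources used here. Outside the set Nanog, with 4 accessions, was at 0.0 in these pluripotent cells, while Pou5f1, with 2, was read at 2592.5 to 5122.2 and Sall4, with 3, at 714.1 to 1627.4 normalized counts. A value near 0 for these 9 genes therefore cannot be read as silence. In bulk libraries, fewer cells that express a gene and less RNA per cell cannot be told apart.

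**Figure D1:**
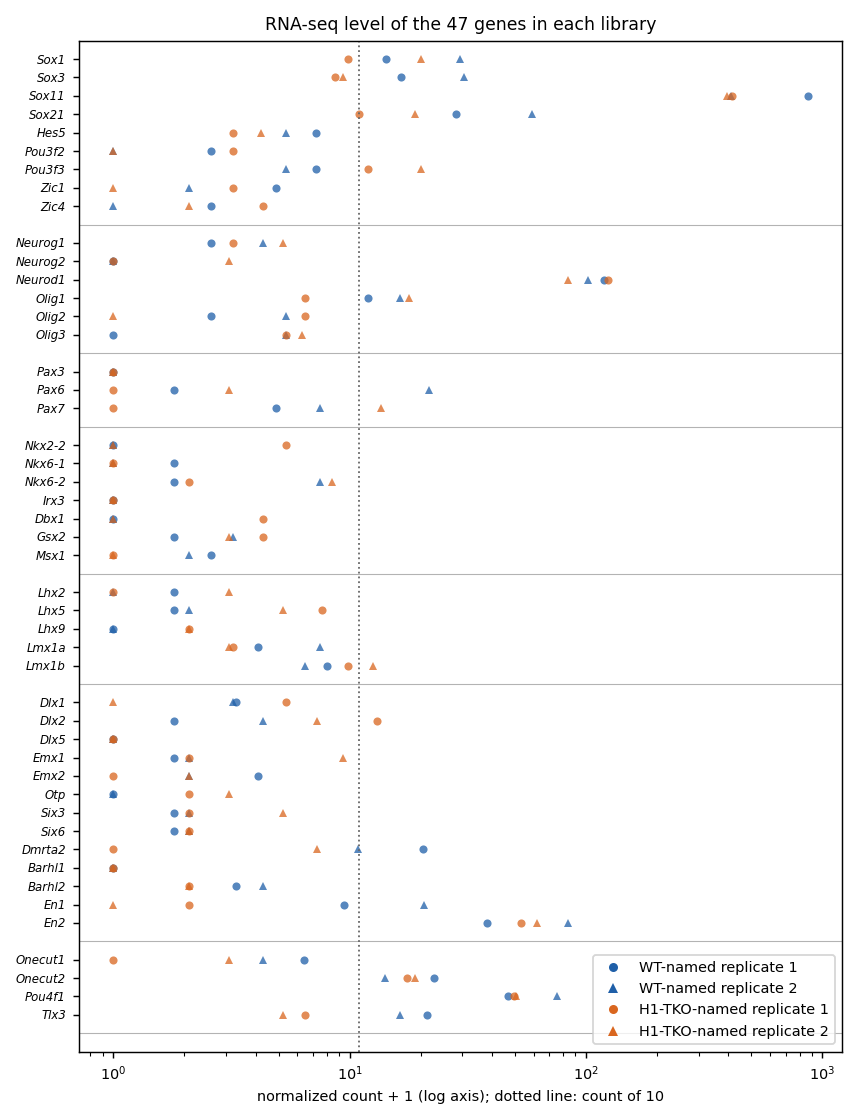
RNA-seq level of each of the 47 genes (rows, grouped by role) as normalized count + 1 on a log axis, with 1 point per library (blue, WT-named; orange, H1-TKO-named; circles, replicate 1; triangles, replicate 2). Sox11 stands at 393.9 to 865.0 and Neurod1 at 83.2 to 123.4, while most genes lie left of the dotted line at a count of 10.

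The 11 genes that could be tested were Sox1, Sox3, Sox11, Sox21, Pou3f3, Neurod1, Olig1, En2, Onecut2, Pou4f1 and Tlx3. None of them differed between the H1-TKO-named and WT-named libraries at an adjusted p of 0.05 by limma (0 of 11). Among all 11113 accessions 9.84% were called higher and 10.7% lower. At an unadjusted p under 0.05 there were 2 of the 11, Sox21 and Tlx3, where the share over all accessions was 37.7%. edgeR and DESeq2 on the recovered reads also called 0 of the 11 after adjustment and 2 each before it. The difference was below 0 for 8 genes and above 0 for 3, with a median of -0.37. These signs rested on single libraries for 5 of the genes, since leaving out 1 library turned that of Neurod1 (to 0.18 at most), Olig1 (0.36), Pou4f1 (0.10), En2 (-0.55 at the lowest) and Onecut2 (-0.32). The groups of libraries did not overlap for 1 gene that was higher, Pou3f3, and for 3 that were lower, Sox3, Sox21 and Tlx3. Over all accessions tested 32.2% were higher and 34.2% lower without overlap, so the members' share was not above the background.

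The SOX factors of the early neural plate held the most abundant member. Sox11 (NM_009234, chr12:28025562-28027574), which acts in neural progenitors and young neurons, was the most abundant member, with a mean of 316 normalized counts per kb of exon in the WT-named and 200 per kb in the H1-TKO-named libraries. It was read at 865.0 and 409.0 normalized counts in the WT-named libraries and at 412.1 and 393.9 in the H1-TKO-named libraries. Only the WT-named replicate 1 stood apart, and the other 3 libraries lay within a narrow band. The log2 difference was -0.56 (SE 0.32, n = 2 per group, adjusted p = 0.244, limma). This value was decided by 1 library, since it was -0.02 (adjusted p = 0.924) without the WT-named replicate 1 and -1.10 (adjusted p = 1.85e-13) without the WT-named replicate 2. With the replicate number as a block the adjusted p was 0.0403.

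Sox21 (NM_177753, chr14:118632454-118636252) counters the SOX1 to SOX3 group and favours neuronal differentiation. It was read at 27.2 and 57.8 in the WT-named libraries and at 9.9 and 17.9 in the H1-TKO-named libraries, so the groups did not overlap. The log2 difference of -1.50 (SE 0.59) had an unadjusted p of 0.0363 and an adjusted p of 0.108. Without the WT-named replicate 1 it was -2.03, past the threshold (adjusted p = 0.00411), and without the WT-named replicate 2 it was -0.97 (adjusted p = 0.282). Sox3 (NM_009237, chrX:58144545-58146605), which keeps neural progenitors undifferentiated, gave 15.5 and 29.5 against 7.7 and 8.4. The groups again did not overlap, and the log2 difference was -1.31 (SE 0.63, adjusted p = 0.174). It was -1.75 without the WT-named replicate 1 and -0.87 without the WT-named replicate 2. Sox1 (NM_009233), the earliest specific marker of neural fate in the embryo, gave 13.2 and 28.4 against 8.8 and 19.0. Its libraries overlapped, its log2 difference was -0.54 (SE 0.67, adjusted p = 0.586), and the median of its chromosome, 8, was -0.25. The difference moved with single libraries of both groups, to -1.07 without the WT-named replicate 1, -0.02 without the WT-named replicate 2, -0.03 without the H1-TKO-named replicate 1 and -1.06 without the H1-TKO-named replicate 2.

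Pou3f3 (NM_008900, chr1:42753991-42757052), a POU factor of neural progenitors and cortical neurons, was the tested member with the highest difference. It was read at 6.2 and 4.4 in the WT-named libraries and at 11.0 and 19.0 in the H1-TKO-named libraries, which is 4 to 18 reads per library. The groups did not overlap. The log2 difference was 1.32 (SE 0.72, adjusted p = 0.221), and 0.82 relative to the median of chromosome 1, on which it lies. The other 4 genes of this early neural group were at 0.0 to 6.2 in every library. Hes5, the Notch effector of neural stem cells, was read at 6.2 and 4.4 against 2.2 and 3.2. Zic1, which acts in the dorsal neural tube and cerebellum, gave 3.9 and 1.1 against 2.2 and 0.0, and Zic4 gave 1.6 and 0.0 against 3.3 and 1.1. Pou3f2 was at or under 2.2. Zic1 and Zic4 lie head to head and overlap on opposite strands, and without knowing whether strand was used, reads in the overlap cannot be told apart.

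Among the bHLH factors Neurod1 (NM_010894, chr2:79292678-79296908), a driver of neuronal differentiation, came next with means of 40.0 and 37.9 normalized counts per kb. Its level was 117.9 and 100.4 in the WT-named libraries and 123.4 and 83.2 in the H1-TKO-named libraries. The difference was smaller than the spread between replicates (log2 -0.10, SE 0.31, adjusted p = 0.835). Olig1 (NM_016968, chr16:91270014-91272184), a factor of oligodendrocyte progenitors, gave 10.9 and 15.3 against 5.5 and 16.9. Its libraries overlapped (log2 difference -0.37, SE 0.74, adjusted p = 0.747). The proneural genes Neurog1 and Neurog2 and the spinal cord factors Olig2 and Olig3 stayed at or under 5.5 in every library. Neurog1 was read at 1.6 and 3.3 in the WT-named libraries and at 2.2 and 4.2 in the H1-TKO-named libraries. Neurog2 was seen in the H1-TKO-named replicate 2 alone, with 2 reads.

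The homeodomain genes that pattern the neural tube had few reads, and for Nkx2-2, Nkx6-2 and Irx3 the limit of several accessions holds. Of these 7 genes, Nkx2-2, Nkx6-1, Nkx6-2, Irx3, Dbx1, Gsx2 and Msx1, none exceeded 7 reads in a library. Nkx2-2 was read at 4.4 in the H1-TKO-named replicate 1 and Dbx1 at 3.3 in the same library, and both were at 0.0 in the others. Gsx2, a factor of the ventral forebrain, gave 0.8 and 2.2 in the WT-named libraries and 3.3 and 2.1 in the H1-TKO-named libraries. Msx1, a factor of the dorsal neural tube and neural crest, gave 1.6 and 1.1 against 0.0 and 0.0. Summed over the group the level was 3.9 and 9.8 in the WT-named libraries and 12.1 and 9.5 in the H1-TKO-named libraries, so the groups overlapped. The paired-box genes were also low in most libraries. Pax3, a gene of the dorsal neural tube and neural crest, had no read, and Pax7 was read at 3.9 and 6.5 against 0.0 and 12.6. Pax6, a master gene of the eye and forebrain, was at 20.7 in the WT-named replicate 2 and at most 2.1 in the other libraries. The 5 LIM homeodomain genes, which set progenitor regions and motor or dopaminergic neurons, summed to 11.6 and 13.1 against 18.7 and 21.1. Most of that came from Lmx1b, at 7.0 and 5.5 against 8.8 and 11.6, and from Lmx1a, on chromosome 1, at 3.1 and 6.5 against 2.2 and 2.1. Lhx5 was read at 0.8 and 1.1 against 6.6 and 4.2.

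The forebrain, eye and midbrain-hindbrain group held En2, En1, Dmrta2, Dlx1, Dlx2, Dlx5, Emx1, Emx2, Otp, Six3, Six6, Barhl1 and Barhl2. En2 (NM_010134, chr5:28492236-28500152), a factor of the midbrain-hindbrain border, was the sole gene of the group that reached a mean of 10. It was read at 37.2 and 82.9 in the WT-named libraries, and the H1-TKO-named libraries at 51.8 and 61.1 lay between them (log2 difference 0.02, SE 0.45, adjusted p = 0.984). Its paralog En1 (chr1:122498995-122505873) showed another picture. En1 was read at 8.5 and 19.6 in the WT-named libraries and at 1.1 and 0.0 in the H1-TKO-named libraries, that is 11 and 18 reads against 1 and 0. With the filter lowered to a mean of 1 its log2 difference was -3.27 (SE 0.81, adjusted p = 0.0596, limma), on a chromosome whose median was 0.50. Dmrta2, a factor of the dorsal forebrain, gave 19.4 and 9.8 against 0.0 and 6.3 (log2 difference -2.46, SE 1.07, adjusted p = 0.188 at that filter). Dlx2, a factor of GABAergic interneurons, ran the other way with 0.8 and 3.3 against 12.1 and 6.3 (log2 difference 1.83, SE 0.79, adjusted p = 0.185). The other 9 genes, the dorsal forebrain factors Emx1 and Emx2 and the eye factors Six3 and Six6 among them, stayed at or under 8.4, and Six6 was at 0.8 and 1.1 against 1.1 and 1.1.

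Among the factors of neuron subtypes Tlx3 (NM_019916, chr11:33100752-33103588), which selects excitatory over inhibitory fate in the dorsal spinal cord, had the lowest difference of the tested members. It was read at 20.2 and 15.3 in the WT-named libraries and at 5.5 and 4.2 in the H1-TKO-named libraries. The groups did not overlap, and the log2 difference was -1.67 (SE 0.68, unadjusted p = 0.0425, adjusted p = 0.120). Relative to the median of chromosome 11 it was -1.29, and across the alternatives with a test the adjusted p ran from 0.0925 to 0.417. Pou4f1 (NM_011143, chr14:104862737-104867216), a factor of sensory neurons, gave 45.8 and 74.2 against 48.5 and 49.5. Onecut2 (NM_194268, chr18:64500002-64560641), which acts in motor neurons and retina, gave 21.7 and 13.1 against 16.5 and 17.9. Both overlapped between the groups, with log2 differences of -0.25 (SE 0.39, adjusted p = 0.673) and 0.02 (SE 0.56, adjusted p = 0.978). Onecut1 gave 5.4 and 3.3 against 0.0 and 2.1.

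**Figure D2:**
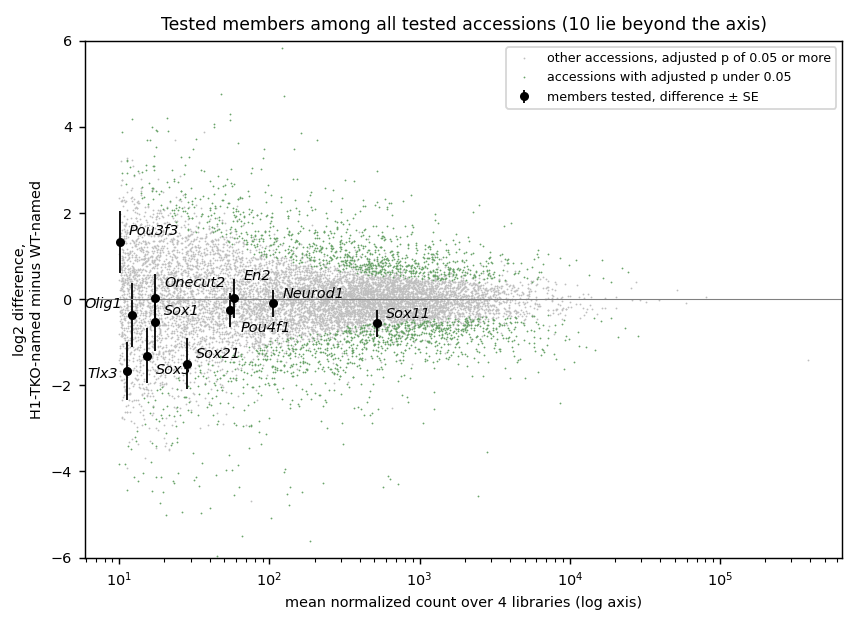
Log2 difference (H1-TKO-named minus WT-named) against the mean normalized count on a log axis for the 11113 tested accessions, with the 11 tested members as black points and bars of 1 SE. The members run from -1.67 (Tlx3) to 1.32 (Pou3f3), and 0 of them are among the accessions past an adjusted p of 0.05 (green).

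Lowering the filter to a mean of 1 brought 35 members into the test. Again 0 of 35 passed by limma, where 8.69% of 16886 accessions did, and 3 had an unadjusted p under 0.05, where 29.8% of accessions did. Of the 35 differences 20 lay below 0 and 15 above. Summed over all 47 genes the level was 1261.5 and 943.5 in the WT-named libraries and 776.8 and 784.6 in the H1-TKO-named libraries. Sox11 carried most of that, since without it the sums were 396.4 and 534.5 against 364.7 and 390.7.

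Other neural genes outside the set moved in some cases. Of 22 neural and neuronal genes 8 could be tested, of which 4 were lower in the H1-TKO-named libraries, 1 was higher and 3 did not pass. Over all 11113 accessions 10.7% were lower and 9.84% higher, and the list was chosen with earlier results of these data known. Nes, an intermediate filament of neural stem cells, was read at 2920.2 and 848.6 in the WT-named libraries and at 203.8 and 224.3 in the H1-TKO-named libraries (log2 difference -2.87, SE 0.49, adjusted p = 0.0105). Cdh2, the neural cadherin, gave 205.6 and 115.6 against 14.3 and 13.7 (log2 difference -3.37, SE 0.42, adjusted p = 0.00446). Tubb3, a neuronal tubulin, and Gbx2, a factor of the anterior hindbrain that pluripotent cells also express, were lower by log2 differences of -0.87 (adjusted p = 0.0290) and -1.58 (adjusted p = 0.0369). Stmn2, a regulator of neuronal microtubules, was higher (log2 difference 0.49, adjusted p = 0.0285).

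Among 7 genes that hold neural genes back, all tested, 3 were higher, 1 was lower and 3 did not pass. The shares over all 11113 accessions, 9.84% higher and 10.7% lower, stand beside this count and that of the pluripotency genes below. Rest, the repressor of neuronal genes outside the nervous system, gave 3104.8 and 4281.2 in the WT-named libraries and 1721.0 and 1643.0 in the H1-TKO-named libraries (log2 difference -1.12, SE 0.17, adjusted p = 0.00727). Hes1, Hey1 and Id4, which inhibit proneural bHLH factors, were higher by log2 differences of 1.03, 1.27 and 1.35 (adjusted p = 0.0139, 0.0324 and 0.0390). Of the pluripotency genes 4 were higher and 2 were lower, and Sox2, which also works in neural progenitors, gave 3958.2 and 5440.7 against 9653.9 and 9460.0. Markers of feeder fibroblasts, summed, ran from 298.9 to 353.8 in the WT-named libraries and from 514.5 to 578.2 in the H1-TKO-named libraries, of which Thy1 gave 449.5 and 510.8 in the latter. Of these 10 markers 3 were at 0 in all libraries. Col1a1, the defining collagen, was lower in the H1-TKO-named libraries (195.5 and 148.3 against 34.2 and 53.7). Markers of mesoderm, endoderm and trophoblast summed to 130.9 to 270.8 against 68.5 to 113.5, of which Hand1 alone gave 175.3 and 63.3 against 36.4 and 4.2. The lowest adjusted p of their 5 tested genes by limma was 0.0617, for Hand1. Their median log2 difference was 0.08, with Hand1 and Gata4 below 0 and T, Mixl1 and Sox7 above. The part of these other cell types in the members' values was not tested.

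H3K27me3 peaks lay near a larger share of the members than of genes at large. A WT peak lay within 2 kb of 31 of the 47 genes (66.0%), where 16.9% of 22226 protein-coding genes had such a peak. An H1-TKO peak also lay near 31 genes, against 15.5% of protein-coding genes. The marking was not particular to neural regulators, since all 10 markers of mesoderm, endoderm and trophoblast had a WT peak and 9 an H1-TKO peak, with a median of 2253 bp covered in WT. The peaks near members were wide. The 42 WT peaks had a median width of 2138 bp, where all 6957 WT peaks had a median of 559 bp, and 61.9% of them were at least 2 kb wide, where 8.21% of the list was. In the H1-TKO list the 40 peaks near members had a median width of 2274 bp against 556 bp. An overlap of 1 bp with a window favours wide peaks, and the whole lists include peaks far from genes. Peaks near other genes were not compared by the same rule, so the width is not shown to be particular to members. The scores of the peaks near members were not higher than those of the lists. The score grows as the p-value that MACS gave to the peak shrinks, and its median was 75.5 near members and 78.8 in the whole WT list, and 73.0 and 76.2 in the H1-TKO list. With 1 list per genotype these counts have no replicate check and no test, and the depth behind a score is not in the lists.

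Peaks were listed in both genotypes at 24 members, in WT alone at 7, in H1-TKO alone at 7 and in neither at 9. Of the 31 members with a WT peak 22.6% had none in H1-TKO, and over all protein-coding genes with a WT peak that share was 25.2%. Conversely, 22.6% of the members with an H1-TKO peak had none in WT, against 18.5%. As shares of all 22226 genes, 4.25% had a peak in WT alone and 2.87% in H1-TKO alone. The length of the members' windows covered by peaks was 88888 bp in WT and 74495 bp in H1-TKO, counted gene by gene, a ratio of 0.838. Over the whole lists, with each peak counted once at its full width, the ratio was 0.864. These ratios are near each other but are not the same measure. The comparison gene by gene, for genes with peaks in both lists, is given below.

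**Figure D3:**
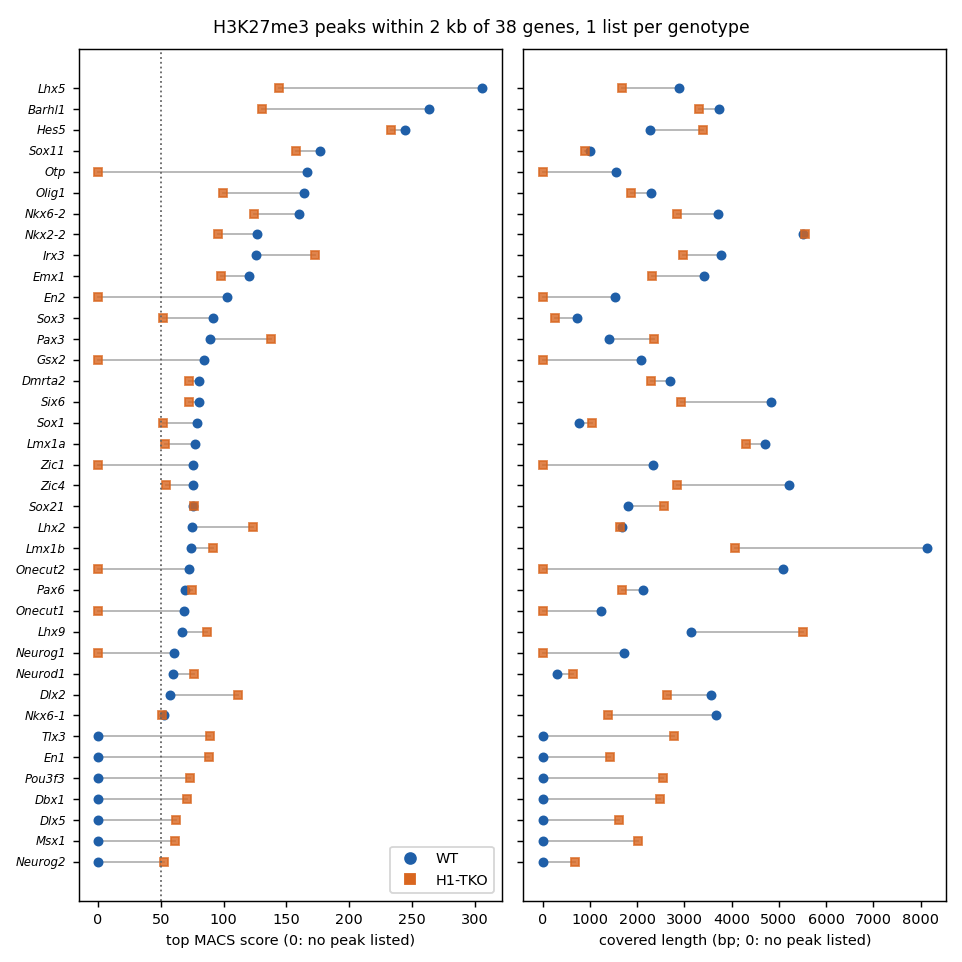
Top MACS score (left) and covered length in bp (right) of H3K27me3 peaks within 2 kb of the 38 genes with a peak, in WT (blue circles) and H1-TKO (orange squares), with 0 where no peak was listed and a dotted line at a score of 50, where both lists begin. Lhx5 and Barhl1 have the highest WT scores, 305.8 and 263.2, and lie at 143.7 and 130.6 in H1-TKO.

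Among the 24 genes with peaks in both lists the top score was lower in H1-TKO at 15 (62.5%) and higher at 9, with a median ratio of 0.900. Over the 2809 protein-coding genes with both peaks it was lower at 58.3%, with a median ratio of 0.918. Covered length was lower at 17 of the 24 genes (70.8%), with a median ratio of 0.831, against 60% and 0.909. The 5 highest top scores in WT belonged to Lhx5, Barhl1, Hes5, Sox11 and Otp. Lhx5, a LIM factor of forebrain and spinal cord interneurons, stood at 305.8 in WT and 143.7 in H1-TKO, and Barhl1, a factor of hindbrain and sensory neurons, stood at 263.2 and 130.6. Hes5 had 244.5 in WT and 233.3 in H1-TKO, and Sox11 had 176.3 and 158.0, so these differed little. Otp, a factor of hypothalamic neurons, had a WT peak of 166.4 and none within 2 kb in H1-TKO.

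Scores ran the other way at some genes. Dlx2 had 57.2 in WT and 111.2 in H1-TKO, Lhx2 75.1 and 123.1, and Pax3 89.0 and 137.5. Irx3, which patterns the ventral neural tube, had 126.0 and 172.9. Of these genes Pax3 lies on chromosome 1, where the number of H1-TKO peaks was 1.14 times that of WT peaks and their covered length 1.21 times, while over all chromosomes the ratios were 0.900 and 0.864. Dmrta2 had 2 WT peaks with a top score of 80.8 and 1 H1-TKO peak with 72.6, over 2693 and 2288 bp.

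The largest covered lengths in WT were at Lmx1b with 8138 bp, Nkx2-2 with 5503 bp, Zic4 with 5207 bp, Onecut2 with 5084 bp and Six6 with 4841 bp. In H1-TKO the same genes had 4066, 5542, 2837, 0 and 2922 bp. Nkx2-2, which sets the most ventral neural progenitors, thus had about the same length in both and the other 4 had less in H1-TKO. Lhx9 on chromosome 1 had 5516 bp in H1-TKO, next to Nkx2-2, against 3142 bp in WT.

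The genes with a peak in WT alone were Neurog1, Zic1, Gsx2, Otp, En2, Onecut1 and Onecut2. Their top WT scores were 60.4, 75.6, 84.4, 166.4, 102.6, 68.8 and 72.4, in that order, so Otp and En2 had a score above 100 and Neurog1 had the lowest, with 27.7% of the WT list below it. With 5 kb on either side 3 of them, Otp, En2 and Zic1, had a peak in H1-TKO as well, but not shown to be at the place of the WT peak. The nearest H1-TKO peaks lay 4626, 9997 and 10263 bp from their starts, in that order. Their WT peaks within 2 kb of the gene began 8512, 209 and 759 bp downstream of the start. The genes with a peak in H1-TKO alone were Pou3f3, Neurog2, Dbx1, Msx1, Dlx5, En1 and Tlx3. Their top scores were 73.4, 53.0, 71.2, 61.4, 62.5, 88.8 and 88.9, each under 100, and they stayed without a WT peak at 5 kb. Pou3f3 and En1 are among the 5 members on chromosome 1. The 9 genes without a peak in either list were Pax7, Olig2, Olig3, Dlx1, Emx2, Pou4f1, Pou3f2, Six3 and Barhl2. With 5 kb on either side of the gene, Olig2 had a WT peak, Barhl2 an H1-TKO peak and Pou4f1 peaks in both lists, and 6 of the 9 still had none. The nearest WT peak to the start of Olig2 lay at 4967 bp with a score of 136.7.

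Peaks spanned the start of transcription at few members. The start used is the outermost one of GENCODE M1. It was inside a WT peak at 6 genes (12.8%), against 3.82% of protein-coding genes, and inside an H1-TKO peak at 6 genes, against 3.23%. Within 2 kb on either side of the start there were 28 pairs of a member and a WT peak, of which 17 lay wholly downstream of the start, 6 spanned it and 5 lay wholly upstream. The share downstream was 60.7%, against 57.1% over all protein-coding genes. For H1-TKO the 22 pairs split into 10, 6 and 6, with 45.5% downstream, against 59.9%. At 12 genes a WT peak began within 1 kb downstream of the start, among them Sox11, Sox21, Hes5, Zic1, Olig1, Nkx6-1, Irx3, Lmx1a, Dlx2 and En2, and an H1-TKO peak did so at 6 genes. These were 25.5% and 12.8% of the members, against 6.62% and 6.37% of protein-coding genes. These shares, and those of starts inside a peak, count genes with and without a peak. Members had a WT peak within 2 kb more often (66.0% against 16.9%). The shares thus do not show that the members' peaks lie nearer the start. Starts differ between annotations. RefSeq promoters could be placed for 40 of the genes, and for 26 of them a RefSeq start lay within 100 bp of the GENCODE start. At Pax6 a second RefSeq start, 13567 bp inside the gene, lay in the WT peak and 2342 bp from the H1-TKO peak. At Barhl1 a start 4173 bp inside lay 890 bp from the strongest WT peak and 229 bp from the H1-TKO peak.

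Some of the DNA under and beside these peaks is shown for its CG content, because the CG dinucleotide is the base pattern that marks Polycomb-bound promoters in textbooks. The first 4 sequences are the 200 bases before the start of a gene and the last 2 are the 200 central bases of the strongest WT peak of a gene. All are read along the gene, 5′ to 3′, from NCBIM37 (the same build as mm9), none overlaps an annotated exon, and capitals mark CG.
Nkx6-2, chr7:146768697-146768896, minus strand: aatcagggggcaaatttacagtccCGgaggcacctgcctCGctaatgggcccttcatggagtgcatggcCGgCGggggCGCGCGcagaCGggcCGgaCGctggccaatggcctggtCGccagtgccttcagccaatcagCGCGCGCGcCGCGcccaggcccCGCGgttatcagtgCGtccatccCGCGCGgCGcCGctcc
Irx3, chr8:94325554-94325753, minus strand: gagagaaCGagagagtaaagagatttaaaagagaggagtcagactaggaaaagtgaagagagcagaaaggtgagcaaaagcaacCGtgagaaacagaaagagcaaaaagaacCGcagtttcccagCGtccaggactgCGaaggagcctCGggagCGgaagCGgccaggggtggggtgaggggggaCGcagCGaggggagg
Tlx3, chr11:33103589-33103788, minus strand: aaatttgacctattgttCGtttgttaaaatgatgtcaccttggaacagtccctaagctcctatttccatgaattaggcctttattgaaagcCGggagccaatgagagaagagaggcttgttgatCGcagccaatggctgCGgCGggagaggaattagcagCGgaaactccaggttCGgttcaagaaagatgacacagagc
Pou4f1, chr14:104867217-104867416, minus strand: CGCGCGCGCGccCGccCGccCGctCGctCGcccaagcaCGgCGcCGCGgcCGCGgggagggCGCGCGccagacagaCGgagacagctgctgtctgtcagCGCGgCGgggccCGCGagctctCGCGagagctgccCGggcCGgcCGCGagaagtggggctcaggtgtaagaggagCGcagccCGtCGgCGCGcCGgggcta
Otp, chr13:95655003-95655202, plus strand: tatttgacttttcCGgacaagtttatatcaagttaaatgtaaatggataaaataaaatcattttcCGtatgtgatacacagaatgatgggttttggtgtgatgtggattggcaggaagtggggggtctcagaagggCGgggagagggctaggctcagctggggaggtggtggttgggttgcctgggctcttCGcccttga
Barhl1, chr2:28765754-28765953, minus strand: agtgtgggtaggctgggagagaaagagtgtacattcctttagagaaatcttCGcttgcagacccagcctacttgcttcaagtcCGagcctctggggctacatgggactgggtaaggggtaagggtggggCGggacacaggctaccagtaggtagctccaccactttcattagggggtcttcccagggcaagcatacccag

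The upstream DNA of Nkx6-2, which an H1-TKO peak covered and a WT peak touched at its outer edge, held 25 CG in 200 bases. Only 7.2% of the 200-base windows before protein-coding starts held as many, and their median was 7. Irx3, whose start lay in an H1-TKO peak and 67 bp from a WT peak, had 10 CG, which 42.7% of windows reached. Tlx3, with peaks in H1-TKO alone, had 7 (52.5% of windows). Pou4f1 had the densest of the 4 with 37 CG, reached by 0.6% of windows, yet no peak of either list lay within 2 kb of it. Its nearest WT peak lay 7929 bp from the start, and with 5 kb on either side of the gene it had a peak in both lists. The peak centres of Otp and Barhl1 held fewer CG than these upstream sequences. That of Otp, in the DNA past the annotated end of the gene, held 4 CG, which 60.0% of WT peak centres reached. That of Barhl1, in an intron, held 3 (71.4%), where the 200 central bases of all WT peaks had a median of 5. Of all upstream windows 90.4% held at least 1 CG, and of all WT peak centres 93.7% did. CG reads the same on both strands and cannot overlap itself.

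CG content of the promoters, which the choice of members did not use, was high at many of them. In the 300 bases from 250 before to 50 after the start, the 47 genes had a median of 22 CG, against 11 over 22221 promoters and 18 over genes with a WT peak. Their median GC content was 64% against 55.3%. The range among members was wide, from 3 CG at Dlx1 and Olig3 to 57 at Pou4f1, and all of these lacked a peak. Barhl1, Neurog2, Dlx5 and Gsx2, with 9 to 11 CG, also did not exceed the median of all promoters. The members' WT peaks held 4.48 CG per 100 bases and their H1-TKO peaks 4.35. This was close to all WT peaks with 4.24 and all H1-TKO peaks with 4.31, and the genome held 0.834. The density of CG under the peaks of members was thus that of H3K27me3 peaks in general.

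**Figure D4:**
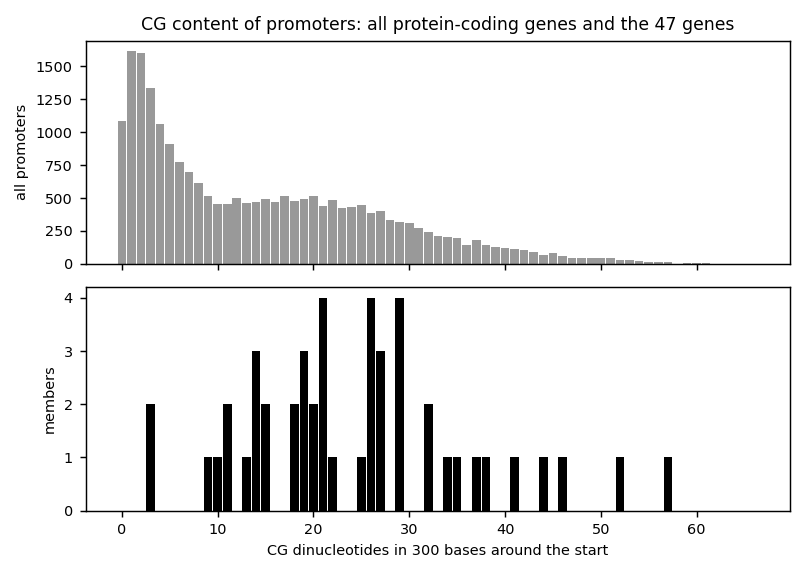
Number of promoters (vertical axes) by their count of CG dinucleotides in 300 bases around the start (horizontal axis), for all protein-coding genes (top, grey) and the 47 genes (bottom, black). Members have a median of 22 CG and all promoters a median of 11, and 2 members stand at 3.

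Set beside the peaks, RNA was low in each class of members. The median level per kb of exon was 1.16 normalized counts for members with peaks in both lists and 1.16 for those with a WT peak alone. It was 0.395 for those with an H1-TKO peak alone and 0.744 for those with none. Over all protein-coding genes the same classes had 2.33, 2.66, 5.04 and 4.31 per kb. Members without any peak were low as well. The classes are not quite alike, since the 9 genes with several accessions, whose values near 0 cannot be read as silence, fell unevenly among them. Dlx5 was in the class with an H1-TKO peak alone, the others were in the class with peaks in both lists, and the remaining classes held none. A peak did not exclude RNA, since Sox11 with 393.9 to 865.0 and Neurod1 with 83.2 to 123.4 had peaks in both lists and were the most abundant members per kb. Of the 7 genes with a peak in H1-TKO alone, Pou3f3 and Tlx3 reached the mean of 10 for the test on RNA and En1 that of 1. None of these 3 passed it by limma, and the other 4 had too few reads to be tested. The values of the H1-TKO-named libraries lay below the WT-named ones at En1, Tlx3 and Msx1 and above them at Pou3f3, while Neurog2 and Dbx1 had reads in 1 library each and Dlx5 had none. On the gene body alone 4 of the 7, En1, Tlx3, Neurog2 and Dlx5, had no peak in either list, and En1 and Neurog2 had none when at least 50% of a peak had to lie in the window. At Otp, whose WT peak had no H1-TKO counterpart within 2 kb, RNA was 0.0 in both WT-named libraries and 1.1 and 2.1 in the H1-TKO-named libraries, which is at most 2 reads. At En2, which had no H1-TKO peak within 2 kb, RNA of the H1-TKO-named libraries lay between the WT-named values. These pairings follow the names of the RNA tables and would turn round under the sample labels.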

How the data were processed

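RNA-seq was read in 4 libraries and H3K27me3 ChIP-seq in 1 peak list per genotype. The authors mapped paired-end reads to the mm9 gene annotation with Subread, counted them with featureCounts and divided them by DESeq2 size factors, and the deposited signal per RefSeq accession is this normalized count. Reads were recovered from it, since 100% of values were whole multiples of 1 read within 0.01. For ChIP-seq the authors used bowtie2 to align reads to mm9 and MACS to call peaks, and the deposited score rises with the negative log10 of the p-value.

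Of the 34010 accessions 33650 got a symbol, and only that, from RefSeq names on GRCm38.p6. Genes were placed by GENCODE M1 on NCBIM37. Sox1 was placed by an exact match of its RefSeq promoter, so its window is 2 kb on either side of its start.

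Where the 4 libraries averaged at least 10 normalized counts, accessions were tested with limma 3.58.1 (R 4.3.3; trend; log2(normalized count + 1), so that differences of low genes are understated), with Benjamini-Hochberg adjustment over all 11113. edgeR 4.0.16 and DESeq2 1.42.0 on recovered reads were alternatives. A peak counted for a gene when at least 1 bp lay within 2 kb of it, and covered length is that inside this window. The limma step was tested on simulated data. Python 3.11.15, numpy 2.4.6, pandas 2.3.3 and matplotlib 3.10.9 were used.

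The 47 genes and the other lists were chosen with earlier results of these data known. Named with values in every library are members past the threshold or at a mean of at least 10, those with a peak in 1 list, the 5 highest WT scores and covered lengths, Dmrta2 and Onecut2. Lhx2, Lhx9, Irx3, Nkx6-2, Pax3, Pax6, Pax7, Dlx2, Lmx1a and others described for a single value were further named after their values were seen. The other samples of the series were not analysed here.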

Additional observations from a re-analysis of the deposited data

How the results depend on the processing

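The count of members past an adjusted p of 0.05, which was 0, was 1 with the replicate block (Sox11) and 1 with no filter (Lhx9, with 1 read in each H1-TKO-named library and none in the others). When each library was left out in turn it ran from 0 to 1, namely Sox21 without the WT-named replicate 1 and Sox11 without the WT-named replicate 2, and with it the accessions called higher ran from 199 to 2682 and lower from 386 to 2786. In those fits the lone library of a group is assumed to vary like the other group. The adjusted p of Sox11 was 0.0403 with the block and its log2 difference -0.56. Calls over all accessions were 75 higher and 1 lower with no filter, and 702 and 765 at a mean of at least 1. Pseudocounts of 0.5 and 4, quantile and TMM scaling, edgeR, DESeq2 and summed accessions changed no call of a member, and a mean of at least 50 changed none of the 4 it left in the test (Sox11, Neurod1, En2 and Pou4f1). The cause of these changes was not tested.

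Same-numbered libraries deviated together with a correlation of 0.011 over 2 pairs, so the numbers were not shown to pair them. The block gave 1521 accessions higher and 1778 lower, against 1094 and 1188.

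With peaks of a score of at least 100 alone, 11 members had a WT peak, 9 an H1-TKO peak, 6 both and 3 an H1-TKO peak alone. With peaks on the gene body alone, 4 had an H1-TKO peak alone. Windows of 5 kb, windows around transcription starts and a 50% overlap kept each count of members within 1.5 times its value. En1 and Tlx3 were read with 0 to 26 reads per library, and whether more depth would change their calls was not tested.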
